A study of Homo sapiens with 6 samples.

Results

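The cyclin-dependent kinase (CDK) inhibitor genes CDKN1A, CDKN1B, CDKN1C, CDKN2A, CDKN2B, CDKN2C, CDKN2D and CDKN3 were taken by symbol from a table of read counts, where they made up 8 of 19470 genes. All of them had a row in the table, and 6 of the 8 had enough counts to be tested. The table held RNA sequencing counts of HCCC9810 cells, an established human cholangiocarcinoma (CCA) line labelled as wild type, which was the only line sequenced. One group was exposed for 24 h to 20 μM isolinderalactone (ILL), a sesquiterpene lactone, and the control group received the vehicle, DMSO, for 24 h, with 3 libraries in each. The labels do not say whether the libraries of a group came from separate cultures, so p-values measure the spread between these libraries, which may be technical.

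CDKs drive a cell through the division cycle once they bind a cyclin, and the inhibitors hold them back. The CIP/KIP inhibitors, encoded by CDKN1A, CDKN1B and CDKN1C, bind complexes of a cyclin with its kinase, and act on CDK2 complexes above all. The INK4 inhibitors, encoded by CDKN2A, CDKN2B, CDKN2C and CDKN2D, bind CDK4 and CDK6 and keep D cyclins away from them, while CDKN3 encodes a phosphatase that removes an activating phosphate from CDK2 and CDK1. A CDK held inactive leaves the retinoblastoma protein able to restrain E2F factors, and with them the genes for DNA replication. The amounts of several of these inhibitor proteins are also set by ubiquitin ligases, which RNA levels do not show.

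Total counts ranged from 34282764 to 37758569 per library, and libraries of a group differed from each other by more than counting noise. Of 10 biliary epithelial marker genes, 8 stood at 1 FPKM or more in every library, KRT7, KRT8, KRT18 and KRT19 among them, whereas CFTR was at 0 in all of them. Of 16 markers of blood, endothelial, stromal and liver cells, 10 were under 1 FPKM in every library, and 1 was at 0 throughout. The summed level of these 16 genes was 27.8 to 33.8 FPKM in controls and 74.6 to 77.6 FPKM with ILL, mostly from CD68, a lysosomal protein, with ALB and COL1A1 the others at 1 FPKM or more in every library, and the part of other cells in the results below was not tested. In RNA from a whole culture, fewer cells of a type or cycle phase and less RNA per cell cannot be told apart.

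With ILL the family split by class, with the 3 CIP/KIP genes higher and the tested INK4 genes and CDKN3 lower. CDKN1A rose 7.34-fold and CDKN1C 5.51-fold, and CDKN1B rose 1.64-fold. In the other direction, the level in controls was 7.98 times the ILL level for CDKN3, 7.95 times for CDKN2C and 1.49 times for CDKN2D. By edgeR's quasi-likelihood test with Benjamini-Hochberg adjustment over 13066 genes, 3 of the 6 tested members passed an adjusted p of 0.05 as higher, against 36.2% of all tested genes, and 3 passed as lower, against 36.9%. DEGs, which also need a fold change above 2 or under 0.5, were CDKN1A and CDKN1C on the higher side, where 12.5% of all tested genes lay, and CDKN2C and CDKN3 on the lower side, where 11.4% lay. The ILL and control libraries did not overlap in any of the 6 tested members, nor did they in 75.4% of all tested genes. So large a share of the transcriptome moved that the number of members called does not set the family apart, and its values are given gene by gene.

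**Figure D1:**
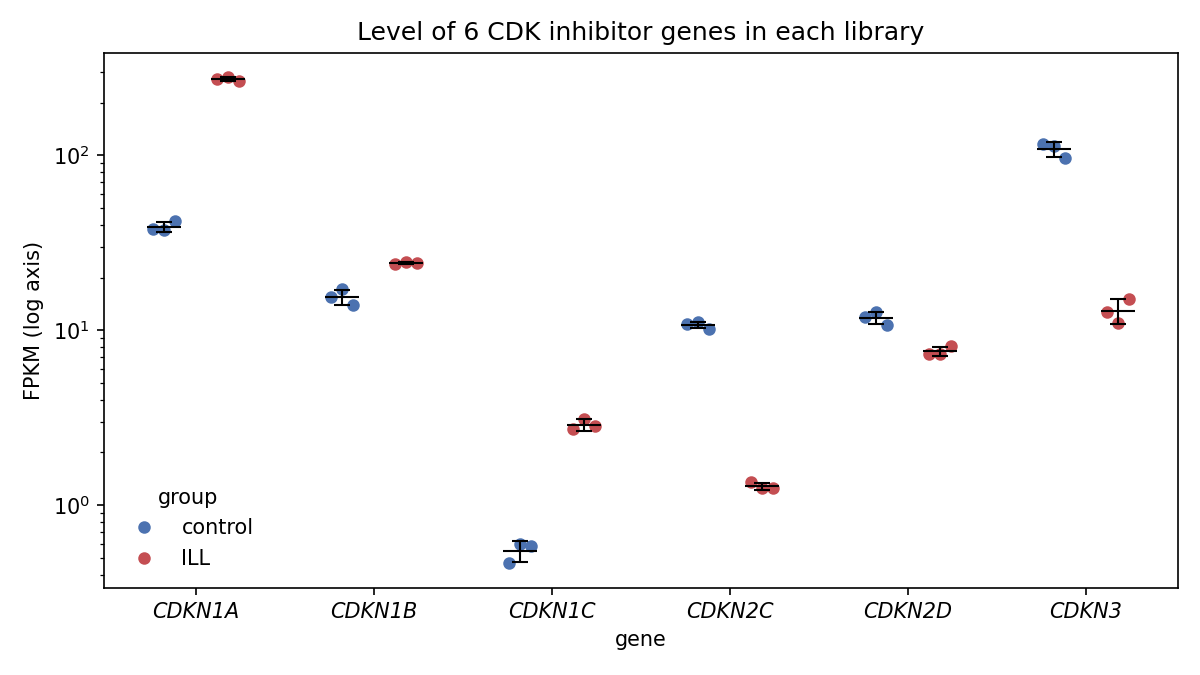
FPKM of the 6 CDK inhibitor genes that were tested, on a log axis, with 1 point per library, blue for control and red for ILL, and a line and bar for the mean ± SD of 3 libraries. CDKN1A went from 39.0 to 273 FPKM and CDKN3 from 108 to 12.9 FPKM, and in none of the 6 genes did the groups overlap.

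CDKN1A encodes p21, a CIP/KIP inhibitor that also binds the replication clamp PCNA, and lies on the plus strand of chromosome 6 from 36676460 to 36687339 of GRCh38. It had 3890, 3461 and 3953 counts in control replicates 1 to 3, and 26552, 26848 and 25904 counts in ILL replicates 1 to 3. Every ILL library was therefore several times above every control library, and within each group the libraries lay close together. Scaled to library size, the level went from 103 ± 7.23 CPM to 760 ± 19.7 CPM (SD, n = 3 each). The log2 fold change was 2.88 (standard error, SE, 0.06, edgeR adjusted p = 9.2e-23). By fold change 181 of the tested genes rose more, but by the gain in CPM, which was 656 for CDKN1A, only 37 did. DINOL, a noncoding RNA gene, overlaps CDKN1A on the opposite strand and has no row in the table, and since no strand setting of the counting is given, reads of the pair cannot be told apart.

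CDKN1B encodes p27, which holds cyclin E with CDK2 inactive in resting cells, and lies on the plus strand of chromosome 12 from 12715058 to 12722371. It had 1411, 1413 and 1172 counts in the control libraries and 2052, 2095 and 2101 counts in the ILL libraries. The ILL libraries were almost level with each other and all above the controls, among which replicate 3 had the fewest counts. Its level rose from 36.6 ± 3.54 to 59.9 ± 1.15 CPM (SD, n = 3 each), a log2 fold change of 0.71 (SE 0.07, edgeR adjusted p = 2.7e-09). This is under the 2-fold limit, so CDKN1B passed the test without being a DEG. A short noncoding gene, AC008115.3, lies within CDKN1B on the same strand and has no row of its own.

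CDKN1C encodes p57, an inhibitor expressed from the maternal copy in the imprinted cluster of chromosome 11, where it lies on the minus strand from 2883213 to 2885773. Its counts in controls were the lowest of the tested members, at 34, 40 and 39, and with ILL they were 187, 215 and 196. The groups were far apart for a gene with so few reads, at 1.04 ± 0.143 against 5.73 ± 0.466 CPM (SD, n = 3 each). Its log2 fold change was 2.46 with an SE of 0.24, the widest of the 6 (edgeR adjusted p = 1.9e-09), and 286 tested genes had a larger one. On the log2(FPKM + 1) scale, where a pseudocount of 1 exceeds the control level of 0.548 FPKM, limma gave a log2 fold change of 1.33. CDKN1C was thus a strong riser from a low base, and with ILL it still stood at only 2.88 ± 0.217 FPKM against 273 ± 6.30 FPKM for CDKN1A.

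CDKN2C encodes p18, an INK4 inhibitor of CDK4 and CDK6, and lies on the plus strand of chromosome 1 from 50960745 to 50974633. Its counts were 898, 831 and 772 in control libraries and 105, 97 and 98 in ILL libraries. No library departed from its group, and the lowest control was several times the highest ILL library. The level fell from 22.9 ± 0.937 to 2.87 ± 0.109 CPM (SD, n = 3 each), with a log2 fold change of -2.99 (SE 0.12, edgeR adjusted p = 6.5e-17). Only 117 of the tested genes had a lower log2 fold change.

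CDKN2D encodes p19, the other INK4 inhibitor that could be tested, and lies on the minus strand of chromosome 19 from 10566462 to 10569059. It had 644, 620 and 532 counts in controls and 373, 367 and 413 counts with ILL. Control replicate 3 and ILL replicate 3 came nearest to each other, and the groups still did not overlap. CDKN2D fell by 0.57 on the log2 scale (SE 0.11, edgeR adjusted p = 4.8e-05), from 16.4 ± 1.31 to 11 ± 0.665 CPM (SD, n = 3 each). It was the smallest change among the tested members and, like CDKN1B, it was under the 2-fold limit. The count ratio of CDKN2D to CDKN2C, which no library scaling affects, went from 0.717 ± 0.0285 to 3.85 ± 0.336 (SD, n = 3 each), so the order of these INK4 genes by counts turned over. By FPKM, which divides by gene length, the mean of CDKN2D was the higher in both groups. It was 11.8 against 10.7 FPKM in controls, where the ranges overlapped, and 7.56 against 1.28 FPKM with ILL.

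CDKN2A, the gene of p16 and of the alternative reading frame protein ARF, and CDKN2B, the gene of p15, lie next to each other on the minus strand of chromosome 9, from 21967753 to 21995301 and from 22002903 to 22009363. CDKN2A had 2, 1 and 0 counts in control libraries and 2, 0 and 0 counts in ILL libraries. CDKN2B had 0 counts in 5 of the libraries and 1 count in ILL replicate 3. Neither gene could be tested, and no fold change is given because both groups were at or under 3 counts, the limit that a count of 0 allows. That limit corresponds to 0.0172 to 0.0189 FPKM for CDKN2A and 0.0199 to 0.0220 FPKM for CDKN2B across the libraries, on the gene lengths the authors used. Transcripts of either gene were thus not detectable above this level in either group, and at this depth a difference with ILL could not be seen.

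The neighbours of CDKN2A and CDKN2B on chromosome 9 were read in the same libraries. MTAP, a methionine salvage gene beside CDKN2A, was at 48.1 ± 3.99 CPM in controls and 65.5 ± 0.821 CPM with ILL (SD, n = 3 each; log2 fold change 0.45, edgeR adjusted p = 1.9e-06). DMRTA1, on the far side of CDKN2B, had 100 to 133 counts per control library and 82 to 118 counts per ILL library, which overlap (log2 fold change -0.07, edgeR adjusted p = 0.80). Both neighbours thus stood well above 3 counts in every library, and CDKN2A and CDKN2B in none. Of the 8 genes of the neighbour list in the table, 6 were tested. At an adjusted p under 0.05, 4 were higher and 1 lower, where 36.2% of all tested genes were higher and 36.9% lower. KLHL9, FOCAD and IFNE rose along with MTAP, by 0.32 to 0.70 on the log2 scale, and HACD4 fell by 0.75. The median of the tested neighbours was 0.33 against -0.0012 over all tested genes. IFNA1 and ELAVL2 had 0 counts in all 6 libraries. CDKN2B-AS1, an antisense RNA gene that overlaps CDKN2A and CDKN2B on the opposite strand, has no row in the table.

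CDKN3 encodes the CDK-associated phosphatase KAP and lies on the plus strand of chromosome 14 from 54396849 to 54420218. With 4375, 3886 and 3360 counts in the control libraries, it fell to 455, 390 and 544 counts in the ILL libraries. ILL replicate 3 was the highest of its group and control replicate 3 the lowest of its own, and the groups still lay far apart. It went from 106 ± 9.65 to 13.3 ± 2.13 CPM (SD, n = 3 each), a log2 fold change of -3.0 (SE 0.09, edgeR adjusted p = 2.4e-19), with 115 tested genes lower. CDKN3 and CDKN2C, which belong to different classes, had nearly the same log2 fold change, and their count ratio was 4.63 ± 0.262 in controls and 4.63 ± 0.809 with ILL (SD, n = 3 each).

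**Figure D2:**
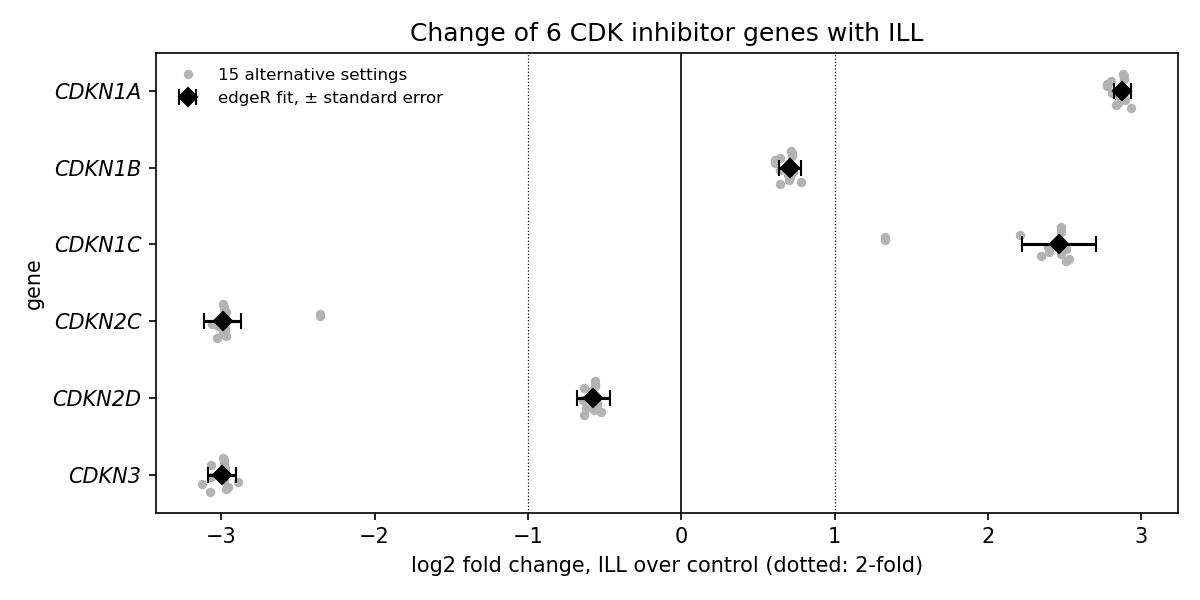
log2 fold change of each tested CDK inhibitor gene, ILL over control, as a black diamond with its standard error from the edgeR fit of 3 against 3 libraries, beside grey points for 15 alternative settings. CDKN1A, CDKN1B and CDKN1C lay above 0 and CDKN2C, CDKN2D and CDKN3 below 0 in all of them, and the CDKN1C and CDKN2C points nearest to 0, at 1.33 and -2.36, come from FPKM with a pseudocount of 1.

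Because FPKM divides by gene length, it allows the members to be ranked against each other within a group. In controls CDKN3 stood highest at 108 ± 10.3 FPKM, followed by CDKN1A at 39.0 ± 2.56, CDKN1B at 15.5 ± 1.54, CDKN2D at 11.8 ± 0.977, CDKN2C at 10.7 ± 0.478 and CDKN1C at 0.548 ± 0.0737 FPKM (SD, n = 3 each). The ranges of CDKN2D and CDKN2C overlapped, and each of the other neighbours in this order was separate, apart from CDKN2A and CDKN2B at the bottom. With ILL the order became CDKN1A at 273 ± 6.30, CDKN1B at 24.2 ± 0.319, CDKN3 at 12.9 ± 2.10, CDKN2D at 7.56 ± 0.457, CDKN1C at 2.88 ± 0.217 and CDKN2C at 1.28 ± 0.0556 FPKM (SD, n = 3 each). All of these neighbours were separate, and again only CDKN2A and CDKN2B overlapped. CDKN3 gave up the first rank to CDKN1A, and CDKN2C passed below CDKN1C.

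The makeup of the family transcripts moved from CDKN3 to CDKN1A. In the summed FPKM of the 8 genes, CDKN3 took 60.1%, 58.9% and 55.5% in the control libraries and 3.95%, 3.36% and 4.76% in the ILL libraries. CDKN1A took 19.7%, 19.4% and 24.1% in control libraries and 85.1%, 85.5% and 83.8% in ILL libraries. By FPKM a single gene thus made up most of the family sum in each group, and it was a different gene in each. Without division by length, CDKN3 and CDKN1A overlapped in controls, at 106 ± 9.65 and 103 ± 7.23 CPM (SD, n = 3 each). The share of CDKN1B was 8.35 ± 0.499% and 7.53 ± 0.122% (SD, n = 3 each), since it rose along with a sum that went from 186 ± 10.4 to 322 ± 3.95 FPKM. Taken by class, the CIP/KIP genes summed to 55.1 ± 1.33 FPKM in controls and 300.1 ± 6.47 FPKM with ILL, and the INK4 genes to 22.5 ± 1.46 and 8.85 ± 0.439 FPKM (SD, n = 3 each). The ratio of the class sums was 2.46 ± 0.214 in controls and 34 ± 2.36 with ILL. Within CIP/KIP, the count ratio of CDKN1A to CDKN1B went from 2.86 ± 0.470 to 12.7 ± 0.322, and that of CDKN1A to CDKN1C from 101 ± 14 to 133 ± 8.59 (SD, n = 3 each), without overlap between the groups in either. These shares and ratios are descriptions and were not tested.

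**Figure D3:**
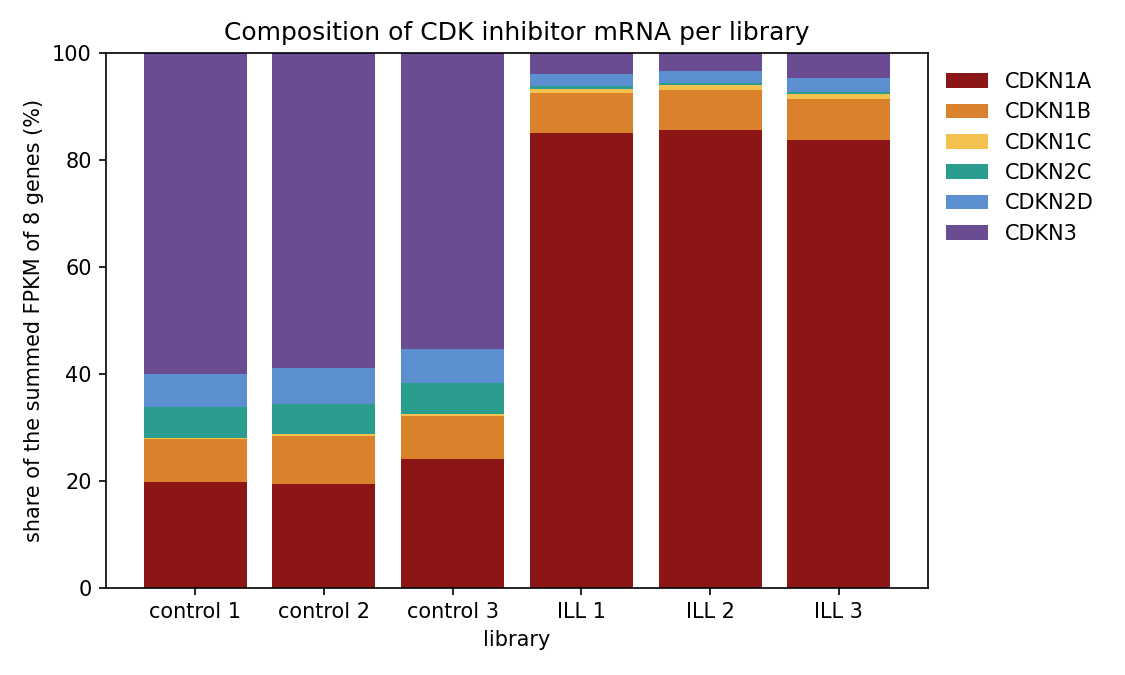
Share of the summed FPKM of the 8 CDK inhibitor genes taken by each gene, in percent, with 1 bar per library; CDKN2A and CDKN2B are too low to be seen. CDKN3 (purple) takes 55.5% to 60.1% of the control bars, and CDKN1A (dark red) takes 83.8% to 85.5% of the ILL bars.

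Sequences before the start sites of CDKN1A, CDKN1B, CDKN2C, CDKN2D and CDKN3 are given because promoter elements bound by SP1, NF-Y, E2F and the DREAM complex are known in genes of this kind. RefSeq promoter windows on GRCh38.p14 were found for 7 of the 8 members, all but CDKN1C, and the 250 bases before each start were searched on both strands. Among all 35116 windows, the GC box bound by SP1, searched as GGGCGG, was found in 42.6%. The CCAAT box bound by NF-Y, searched by these letters, was found in 32.0%, and TTTGAA, the cell cycle genes homology region (CHR), in 13.3%. The E2F site, searched as GGCGGGAA, was found in 2.72%, and the TATA box, searched as TATAAA, in 10.7%, so a single match is common for all but the E2F letters. The window of CDKN1A held 4 GC boxes, some of them overlapping, and none of the other motifs. That of CDKN3 held 2 CCAAT boxes and 1 CHR, the latter on the reverse strand 170 bases before the RefSeq start. Exons of CDKN3 in GENCODE 29 cover the 158 bases nearest that start. The CCAAT box 83 bases before the RefSeq start lies within them, and the CHR lies just before them. For CDKN2D the search found 1 CCAAT box and 2 GC boxes, and for CDKN1B 2 CCAAT boxes and 1 GC box. CDKN2C has 3 windows, and the E2F letters were in 1 of them, 132 bases before that start. The same window held 5 GC boxes, some of them overlapping. Another CDKN2C window held 1 CCAAT box and 1 GC box, and the remaining window held none of the motifs. Each stretch below runs 5′ to 3′ on the strand of its gene, with matches in capitals (a match on the reverse strand appears as its reverse complement), and the longer stretches are the parts of the window outside exons annotated by GENCODE 29. The short CDKN1B and CDKN2C stretches lie within annotated exons of their own genes, which cover 244 and 250 of the 250 bases of these windows.
CDKN1A, chr6:36678560-36678657, plus strand: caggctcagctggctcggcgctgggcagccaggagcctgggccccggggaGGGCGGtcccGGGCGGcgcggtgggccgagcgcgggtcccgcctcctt
CDKN1B, chr12:12717305-12717334, plus strand: cccgccgccgcaaCCAATggatctcctcct
CDKN2C, chr1:50968563-50968592, plus strand: ggagagcgggaGGCGGGAAtgagggcgcgg
CDKN2D, chr19:10569060-10569229, minus strand: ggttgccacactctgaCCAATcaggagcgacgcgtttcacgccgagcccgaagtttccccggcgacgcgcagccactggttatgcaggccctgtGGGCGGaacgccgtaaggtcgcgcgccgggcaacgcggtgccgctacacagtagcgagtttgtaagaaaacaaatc
CDKN3, chr14:54396757-54396848, plus strand: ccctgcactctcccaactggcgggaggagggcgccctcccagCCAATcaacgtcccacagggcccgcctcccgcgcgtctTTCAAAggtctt
The CDKN1A stretch, from the member that rose most in CPM, shows 2 of its GC boxes. The CDKN2C stretch shows the E2F letters but not the GC boxes of the same window. In the CDKN3 stretch a CCAAT box is followed by the CHR. A match is a description of these letters and not a measured binding site.

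The genes whose pattern over the 6 libraries was most like that of each member were found among 12049 tested genes with a mean of at least 1 CPM, by the root mean square difference of log2(CPM + 0.1) after each gene was centred on its mean. For CDKN3 they were CDK1 (difference 0.0638), a kinase that KAP dephosphorylates, CENPA (0.0674), a centromeric histone, and PTTG1 (0.0873), encoding securin. CDKN2C was likest to CEP55 (0.0309), HMGB2 (0.0410) and CDCA5 (0.0532), genes of cytokinesis, chromatin and sister chromatid cohesion. CDKN2C itself stood at place 31 among the genes likest to CDKN3. CDKN1A was likest to BICDL2 (0.0575), SLC20A2 (0.0684), a phosphate transporter, and S100P (0.0695), a calcium-binding protein. Near CDKN1B were STEAP2 (0.0321), HEATR6 (0.0371) and SPSB1 (0.0372), and near CDKN1C ALDH2 (0.0726), RELB (0.0765) and PBXIP1 (0.0865). For CDKN2D the nearest were SGCE (0.0193), SCO1 (0.0202) and GLRX2 (0.0342). Since the groups differ in all 6 members, likeness mostly reads a fold change of similar size.

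The kinases and cyclins that the inhibitors bind mostly fell, in a list that also holds the CDK-activating kinase genes CDK7, CCNH and MNAT1. Of the 15 tested genes of this list, 13 were lower and 2 higher at an adjusted p under 0.05, where 36.9% of all tested genes were lower and 36.2% higher, with a median log2 fold change of -1.52 against -0.0012 over all tested genes. CDK2, the main kinase bound by p21 and p27, fell by 1.94 on the log2 scale (SE 0.07, edgeR adjusted p = 1.1e-17). CDK4 and CDK6, bound by INK4 inhibitors, had log2 fold changes of -1.52 and -0.85. The lowest values were those of CCNA2 (-3.29), CCNB1 (-3.11) and CDK1 (-3.08), while CCNE1 was at -2.86 and CCND1 at -0.55, and those that rose were CCND2 (1.20) and CDK7 (0.44). The inhibitor and kinase levels thus moved apart for CDKN1A, with a ratio of CDKN1A to CDK2 FPKM of 0.876 ± 0.111 in controls and 24.6 ± 1.73 with ILL (SD, n = 3 each). For CDKN1B over CDK2 the ratio was 0.347 ± 0.0369 and 2.19 ± 0.141. CDKN2C went the other way, since it fell by more than CDK4 and CDK6 did. Its ratio to CDK4 was 0.141 ± 0.00664 in controls and 0.0509 ± 0.00140 with ILL, and its ratio to CDK6 was 0.492 ± 0.0219 and 0.111 ± 0.00128. CDKN2D, which fell by less than CDK4, had a ratio to it of 0.155 ± 0.0133 and 0.301 ± 0.0218.

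Genes with roles upstream of the inhibitors were counted from lists. Of 31 tested transcriptional regulators of the inhibitor genes, 18 were higher, 6 lower and 7 did not pass, where 36.2% of all tested genes were higher and 36.9% lower, and the median log2 fold change was 0.35 against -0.0012 over all tested genes. MDM2, the gene of a ubiquitin ligase, rose by 0.52 on the log2 scale (edgeR adjusted p = 4e-08), well short of the 2.88 of CDKN1A. The largest rises were in ATF3 (3.42), FOXO4 (2.87) and KLF4 (2.18), a stress factor, a forkhead factor and a Krüppel-like factor, and FOXO4 had only 4 to 19 counts per control library. The largest falls were in FOXM1 (-2.73), TP73 (-2.19) and EZH2 (-1.97). Of 20 genes in turnover of the inhibitor proteins, 16 were lower, 2 higher and 2 did not pass, against the same 36.9% lower and 36.2% higher over all tested genes, and the median was -0.39. SKP2, the receptor of the ligase that removes p27, went from 41.8 ± 2.0 to 8.99 ± 1.77 CPM (SD, n = 3 each), with a log2 fold change of -2.22 (edgeR adjusted p = 2.1e-15), against a rise of 0.71 in CDKN1B. The lowest of this list were CDC20 (-3.67), DTL (-3.21), part of the ligase that removes p21, and CKS2 (-2.37), and the genes that rose were RNF123 (0.63) and CUL4B (0.45).

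CDKN3 and CDKN2C fell alongside genes expressed in dividing cells. All 30 genes of that list were tested, and all of them were DEGs on the lower side, where 11.4% of all tested genes lay. The list was written by hand with earlier results of these data known. Its median log2 fold change was -2.89, against -0.0012 over all tested genes. The list median was a little less far from 0 than the -3.0 of CDKN3 and the -2.99 of CDKN2C. The lowest were BIRC5 (-3.56), TOP2A (-3.55) and CENPF (-3.42), genes of chromosome segregation. In counts, CDKN3 over CDK1 was 0.265 ± 0.00198 in controls and 0.280 ± 0.0164 with ILL (SD, n = 3 each), so their ratio moved little while each fell by about the same factor. CDKN2D, at -0.57, was far from this list. The part that a smaller share of dividing cells has in the fall of CDKN3 and CDKN2C was not tested.

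**Figure D4:**
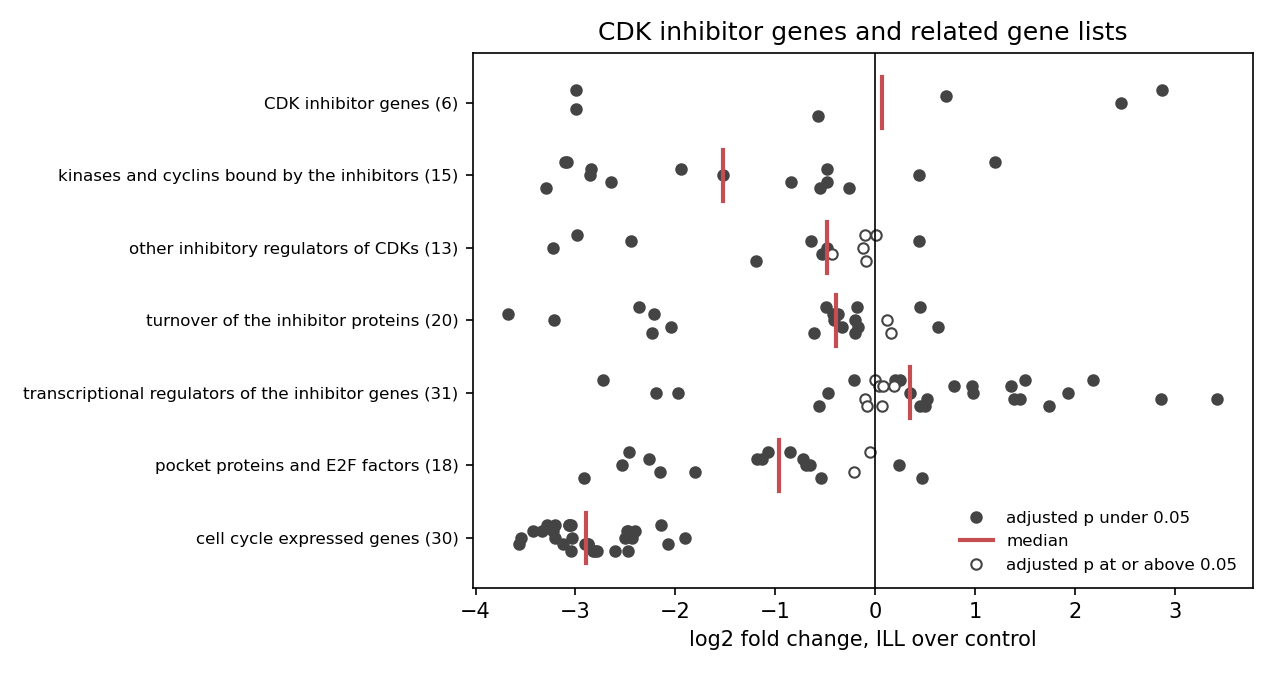
log2 fold change, ILL over control, of the tested genes of the CDK inhibitor family and of 6 related lists (number of genes in brackets), with filled points for an adjusted p under 0.05, open points for the others and a red line at each median; the list of other inhibitory regulators also holds the activating CDC25 genes. The family spans -3.0 to 2.88. All 30 cell cycle expressed genes lie on the lower side at an adjusted p under 0.05, as do 36.9% of all tested genes.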

How the data were processed

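RNA-seq libraries of HCCC9810 cells were mapped to ILL or control by their labels, 3 per group. The authors deposited raw read counts and FPKM per gene symbol, 1 column per library. Each deposited FPKM value is a count over the library total and over a gene length, which came out as a whole number for 100% of 88055 nonzero values within 0.1%. The submitters' processing notes name GRCh38 and DESeq2; the aligner, the counting program, its strand setting and the annotation are not given in the sources used here.

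With edgeR 4.0.16 in R 4.3.3, genes with low counts were dropped by filterByExpr, leaving 13066, TMM factors scaled the libraries, and the groups were compared by the quasi-likelihood test and Benjamini-Hochberg adjustment over all of them. The standard error is the log2 fold change over the root of its F value. Total counts of 34282764 to 37758569 per library and a biological coefficient of variation of 0.0717 set the precision. DEGs follow the cutoffs of the study's methods. On simulated counts of 12972 genes for this comparison, 80% of 100 genes changed by 0.6 on the log2 scale and 99% of 100 genes changed by 2 were called, with 15 unchanged genes called. Only these genes were changed, all with a mean of at least 1 CPM. In the data 9547 genes passed, so these rates need not hold there.

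The members and the gene lists were chosen with earlier results of these data known, and the lists were written by hand. Besides the members, named genes are the 9p21 and 11p15 neighbours in the table, at most 3 genes at each end of each other list among those past an adjusted p of 0.05 with a mean of at least 1 CPM, the 3 genes likest to each tested member, and MDM2, SKP2, RB1, CDK2, CDK4, CDK6, CCND1 and CCNE1. Individual values of most marker genes are left out, and a few genes named by this rule are not reported. Positions are those of GENCODE 29 on GRCh38, and promoter windows those of RefSeq on GRCh38.p14. Alternatives were DESeq2's size factors, total counts, all genes with a count, a minimum of 10 counts per library, the Wald test of DESeq2 1.42.0, limma on log2 FPKM (limma 3.58.1, pseudocount 1 or 0.1), the replicate number as a block and each library left out. Figures were drawn with matplotlib 3.10.9.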

Additional observations from a re-analysis of the deposited data

How the results depend on the processing

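All 6 tested members kept their direction and passed an adjusted p of 0.05 in each of the 15 alternatives, with log2 fold changes of 2.78 to 2.93 for CDKN1A, 0.61 to 0.78 for CDKN1B, 1.33 to 2.53 for CDKN1C, -3.06 to -2.36 for CDKN2C, -0.64 to -0.52 for CDKN2D and -3.12 to -2.89 for CDKN3, and the highest adjusted p over these settings was 0.00068, for CDKN2D. Same-numbered libraries did not deviate together (correlations 0.0067, -0.020 and -0.060), so the numbers were not taken to pair the libraries, although HBB, a hemoglobin gene, had 132 counts in control replicate 1, 146 in ILL replicate 1 and 0 in the others. With the replicate number as a block, 9437 genes passed in place of 9547, 9408 of them shared, and CDKN1A kept a log2 fold change of 2.88. Of the 59 related genes named and tested, 53 kept direction and call in every alternative that tested them. Some were tested in fewer than 15, such as FOXO4 in 12. CABLES1, RBL2, LIN37, KCNQ1 and ALB each lost the call in some alternatives. DMRTA1, not called, ranged from -0.15 without ILL replicate 1 to 0.076 without ILL replicate 2. DEGs over all genes numbered 909 higher with limma on log2(FPKM + 0.1), 668 higher and 923 lower with a pseudocount of 1, and 680 higher and 929 lower with no filter as well, where a larger pseudocount shrinks changes of low genes; limma with a pseudocount of 0.1 also moved the median of all genes to -0.10. With filtered FPKM at either pseudocount, the list of kinases and cyclins had 1 higher gene. CCND2 was under the filter of a mean of 1 FPKM and was not tested there. It kept its call in all 13 alternatives that tested it. The other regulators of CDK activity had 0 higher genes under each limma setting and under total count scaling, and 0 to 1 with a library left out. Of the pocket proteins and E2F factors 1 was higher with filtered FPKM, 0 with unfiltered FPKM or total count scaling, and 1 to 2 with a library left out. By CPM in place of FPKM, CDKN3 and CDKN1A overlapped in controls, and CDKN2C took rank 4 and CDKN2D rank 5 in controls. Counts near 0 for CDKN2A and CDKN2B and under 50 for CDKN1C in controls are where depth limits the values.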

Other observations

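Around CDKN1C, all 7 genes of the 11p15 neighbour list found in the table were tested, and 6 were higher and 1 lower with ILL at an adjusted p under 0.05, where 36.2% of all tested genes were higher and 36.9% lower, with a median log2 fold change of 1.03 against -0.0012 over all tested genes. SLC22A18, a transporter gene next to CDKN1C, had 88, 60 and 55 counts in controls and 291, 321 and 238 with ILL, a log2 fold change of 2.14 (edgeR adjusted p = 1.1e-09), close to the 2.46 of CDKN1C. CARS1 (1.44), a cysteinyl-tRNA synthetase, and CD81 (1.03), a tetraspanin, were also DEGs. IGF2 (0.58) and PHLDA2 (0.23) rose by less, and NAP1L4, a histone chaperone, fell by 0.38. KCNQ1 had a log2 fold change of 1.91 on 2 to 13 counts per control library and 9 to 39 per ILL library, which overlap, and lost its call on leaving out ILL replicate 1 (edgeR adjusted p = 0.060), ILL replicate 3 (0.054) or control replicate 3 (0.060).

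Another list held further regulators of CDK activity, mostly inhibitors together with the activating CDC25 phosphatases. Of its 13 tested genes 7 were lower, 1 was higher and 5 did not pass, where 36.9% of all tested genes were lower and 36.2% higher, and the median log2 fold change was -0.48. The lowest were CDC25C (-3.22) and CDC25A (-2.98), phosphatases that activate CDKs, and PKMYT1 (-2.44), a kinase that inhibits CDK1, so members with opposite roles fell together. CABLES1, an adaptor of CDKs, was the one that was higher (0.44), and it kept its call in 8 of 15 alternatives, losing it without ILL replicate 2 (0.29), ILL replicate 3 (0.41) or control replicate 3 (0.27). Of 18 pocket protein and E2F genes, 14 were lower, 2 higher and 2 did not pass, against the same shares over all tested genes, with a median of -0.96. RB1, the gene of the retinoblastoma protein, was at -0.05 (edgeR adjusted p = 0.50), and the lowest were E2F2 (-2.92), MYBL2 (-2.53) and E2F8 (-2.46). LIN37 (0.47) and RBL2 (0.24) were higher, LIN37 not without ILL replicate 3 (0.35) or control replicate 3 (0.25), and RBL2 not without control replicate 1 (0.18) or control replicate 2 (0.20).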
